A study of Mus musculus with 10 samples.

Results

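The keratins of simple epithelia, Krt8, Krt18, Krt7 and Krt19, were followed in trophoblast stem cells (TSCs) of the mouse, which stand in culture for the outer layer of the blastocyst. They were taken by gene symbol, and all 4 had a row in each table, among 17793 rows in the bulk table and 18356 to 19627 rows in the single-cell tables. RNA was counted with CEL-Seq2, which primes at the poly(A) tail and tags each transcript with a molecular identifier (UMI), so that counts were not divided by gene length. All cells were on a C57BL/6J background. The 4 single-cell libraries came from lines with a randomly inserted GFP cassette, with 1 plate of 384 wells and 1 library per group. These were F4 TSCs grown in Tx medium (TSC), F4 cells after 6 days without Fgf4, Tgfb and heparin (differentiated TSC), newly derived TSCs kept in LT21 medium (pTSC), and pTSCs of line pTS1 recovered from blastoids, blastocyst-like structures built from stem cells (blastoid pTSC). The 6 bulk libraries came from TSCs with eGFP knocked in at Cdx2 and sorted into CDX2-high (libraries 37, 38 and 39) and CDX2-low (libraries 40, 41 and 42) cells. Whether the bulk libraries were separate cultures is not given in the labels, and the p-values then cover no more than the spread among these libraries, which may be technical.

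Keratins are intermediate filament proteins that assemble only as pairs of a type I and a type II chain. Krt8 and Krt7 are type II chains, and Krt18 and Krt19 are type I chains. Krt8 with Krt18 is the first pair to form filaments in the mouse embryo and marks the trophectoderm, where the filaments anchor at desmosomes and protect the epithelium against mechanical stress. A keratin chain that lacks a partner is degraded, so that cells need both types.

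The genes of the main pair lie next to each other. In the reference annotation Krt8 is on the minus strand and Krt18 on the plus strand of chromosome 15, with 0 protein-coding genes between them and 23698 bases between their starts, and they point away from each other. Krt7 is on the same chromosome and Krt19 on chromosome 11. The promoters of the 3 genes matched in RefSeq (build GRCm38.p6) are shown because Krt8 and Krt18 moved together in the data below. The 250 bases before each start are printed 5′ to 3′ on the gene's strand, at chr15:102004343-102004592 for Krt8, chr15:102027966-102028215 for Krt18 and chr15:101412153-101412402 for Krt7. Capitals mark matches, on either strand, to the GC box GGGCGG, the GATA motif, spelled AGATAA, or the AP-2 motif, spelled GCCNNNGGC.
Krt8: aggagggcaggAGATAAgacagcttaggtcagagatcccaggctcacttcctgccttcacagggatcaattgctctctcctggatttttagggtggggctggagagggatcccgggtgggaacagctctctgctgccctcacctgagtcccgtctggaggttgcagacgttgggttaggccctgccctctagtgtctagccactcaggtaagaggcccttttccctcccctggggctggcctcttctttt
Krt18: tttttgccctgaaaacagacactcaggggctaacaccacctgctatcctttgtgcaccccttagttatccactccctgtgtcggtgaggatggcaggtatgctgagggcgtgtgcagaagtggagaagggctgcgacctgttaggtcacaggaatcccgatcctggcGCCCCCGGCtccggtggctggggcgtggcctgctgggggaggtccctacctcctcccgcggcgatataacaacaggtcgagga
Krt7: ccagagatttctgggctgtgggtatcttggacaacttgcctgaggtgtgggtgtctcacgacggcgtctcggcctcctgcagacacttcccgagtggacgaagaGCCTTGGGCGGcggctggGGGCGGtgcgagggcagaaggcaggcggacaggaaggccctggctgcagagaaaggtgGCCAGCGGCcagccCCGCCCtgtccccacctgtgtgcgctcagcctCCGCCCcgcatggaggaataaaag

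The search covered these bases and the 50 after the start. Krt7 held 4 GC boxes and 2 AP-2 matches, the first of each overlapping, whereas Krt8 held 1 GATA match and Krt18 held 1 AP-2 match. Among all 32851 promoters of the table, 35.7% held a GC box, 16.6% an AP-2 match and 11.2% a GATA match in a window of this length. TATAAA, found in 13.6% of promoters, occurred once on each strand at the start of Krt8, where the match spans the first base and so runs past the printed end. The AP-1 motif, spelled TGANTCA and found in 7.81% of promoters, did not occur in the 3 windows. The same held for the TEAD motif, spelled GGAATG (14.7%), and the CDX motif, spelled TTTATNG (10.9%). No searched motif occurred in both the Krt8 and the Krt18 window.

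A well was kept if it held 2000 or more UMIs once mitochondrial genes were set aside, which left 257 to 318 wells per library, 1192 in all, with 2315931 to 5388767 UMIs per library and medians of 6844 to 15091 UMIs per well. The TSC library was the deepest, and 148 well positions were kept in all 4 plates. Of 12 trophoblast markers, 10 or 11 had UMIs in each library. Gata2, with 17 counts over the 6 bulk libraries, had no row in the 4 single-cell tables and was taken as 0. Of these markers, 5 reached 10 UMIs in differentiated TSC, 11 in TSC, 10 in pTSC and 9 in blastoid pTSC. Their summed level was 1530, 4492, 4153 and 2893 CPM (counts scaled to 1000000 per library) in that order. Among 10 fibroblast markers, the summed level was 16.9 to 58.7 CPM. Among 10 epiblast markers it was 724 to 1148 CPM, most of it from Utf1 (3992 of 4929 UMIs in the TSC library). Among 10 primitive endoderm markers it was 640 to 1130 CPM, nearly all of it from Col4a1 (3189 of 3248 UMIs in the differentiated library). Gata4 had no row in the single-cell tables either and was likewise taken as 0. The TSC and differentiated libraries are both labelled F4, yet Xist was counted 1515 times in the first and 14 times in the second. Genes of the Y chromosome were counted 825 and 374 times, in libraries of 5388767 and 3254559 UMIs. What these counts mean for the origin of the 2 libraries was not tested. Bulk libraries held 157588 to 272030 counts in the CDX2-high group and 116659 to 138966 in the CDX2-low group, so that depth moved with the sort. Cdx2 itself had only 7 counts over the 6 bulk libraries (1, 0 and 5 against 0, 1 and 0), too few to check the sort. Krt8 overlaps the non-coding gene Gm36026 and Krt7 the antisense gene Gm671, neither with a row of its own, and reads from the Krt8 pseudogene, which has no row either, may be included in Krt8.

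Sorting by CDX2 separated the main keratin pair. Bulk values are CPM taken over the tested genes' counts with TMM scaling. Krt8, the type II chain, stood at 228, 238 and 297 in CDX2-high libraries and at 1026, 789 and 940 in CDX2-low ones, or 254 ± 37.4 against 918 ± 120 (SD, n = 3 each). Each CDX2-high library was below each CDX2-low library, and Krt8 fell in CDX2-high cells with a log2 fold change of -1.83 (SE 0.22, Benjamini-Hochberg adjusted p = 7.05e-06 in the quasi-likelihood fit of edgeR). Krt18, its type I partner, stood at 539, 568 and 536 against 851, 1300 and 885, or 548 ± 17.8 against 1012 ± 250 (SD, n = 3 each). The groups again did not overlap, and the change was smaller, with a log2 fold change of -0.89 (SE 0.21, adjusted p = 0.0105 by edgeR).

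Of the minor keratins, Krt19, a type I chain without the usual tail domain, stood at 37.97, 41.9 and 35.4 in CDX2-high and 133, 121 and 119 in CDX2-low libraries. It fell with a log2 fold change of -1.67 (SE 0.40, adjusted p = 0.0111 by edgeR), from only 62 counts over the 6 libraries. Krt7, a type II chain of ducts and trophoblast, had 51 counts and did not pass the filter on low counts. Its values were 45.6, 37.3 and 44.3 against 71.8, 26.0 and 155, so that the groups overlapped. Thus 3 of 4 keratins were tested and all 3 fell in CDX2-high cells without overlap between groups, where 5.89% of 3006 tested genes passed in either direction, 2.79% fell and 11.4% lay lower without overlap. The median log2 fold change was -1.67 over the tested keratins and -0.01 over all tested genes. In bulk samples, fewer cells that carry a keratin and less keratin RNA per cell cannot be told apart.

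**Figure D1:**
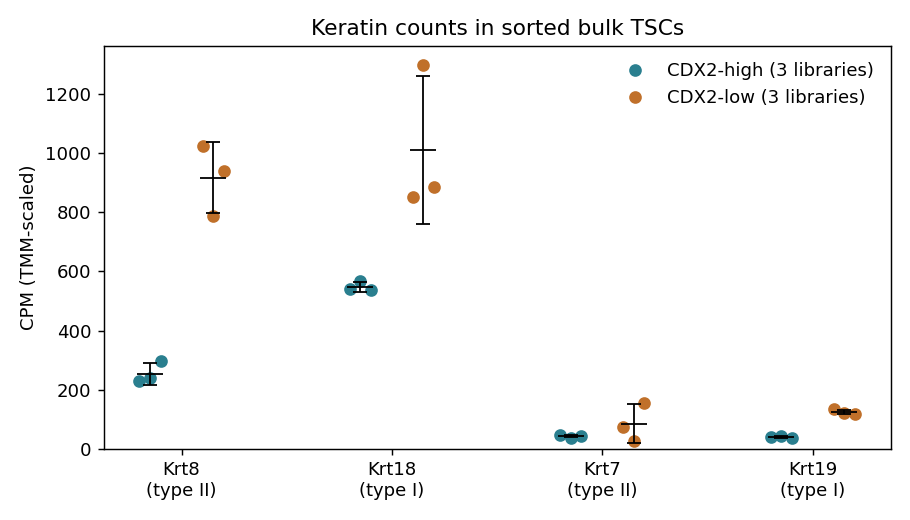
CPM of the 4 keratins in each bulk library (points), with the mean and SD of 3 libraries (black bars), CDX2-high beside CDX2-low. For Krt8, Krt18 and Krt19 all CDX2-high points lie below all CDX2-low points, whereas the Krt7 points overlap.

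The Krt8 call held when any 1 library was left out (adjusted p from 2.66e-07 to 0.000229 by edgeR) and with every library thinned to the smallest total (adjusted p = 1.29e-06 by edgeR). The Krt18 call was lost without library 37 (adjusted p = 0.0630), 39 (0.0773) or 41 (0.0592), and the Krt19 call without library 37 (0.0582), 38 (0.0570), 39 (0.0918) or 40 (0.0547), all by edgeR, and under DESeq2 (adjusted p = 0.126 for Krt19).

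The RNA counts of the 2 chains of the pair also shifted against each other. There were 0.423, 0.418 and 0.554 Krt8 counts per Krt18 count in CDX2-high cells, by library, against 1.20, 0.607 and 1.06 in CDX2-low cells. On the log2 scale the means were -1.12 ± 0.23 and -0.12 ± 0.53 (SD, n = 3 each), a difference of -0.996. The groups did not overlap, and the exact two-sided permutation p was 0.1, the smallest that 20 splits of 6 libraries can give. Krt8 counts thus ranged from less than its partner's in every CDX2-high library to more in CDX2-low libraries 40 and 42. With Krt7 and Krt19 counted too, there were 0.474, 0.450 and 0.597 type II counts per type I count in CDX2-high cells. In CDX2-low cells there were 1.11, 0.573 and 1.09. On this wider ratio library 39 lay above library 41, so that the groups overlapped.

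Genes that work with keratins were read from the same bulk fit. Of 19 desmosome and linker genes, 7 were tested, 2 fell and 2 rose in CDX2-high cells. Desmoplakin (Dsp), which ties keratin filaments to the desmosome plaque, fell with a log2 fold change of -1.27 (adjusted p = 0.0299 by edgeR), and the desmosomal cadherin Dsg2 with -1.18 (adjusted p = 0.0464 by edgeR). Perp, a membrane protein of desmosomes, rose by 1.13 (adjusted p = 0.00937 by edgeR), and Plec, the linker plectin that crosslinks intermediate filaments to other structures, rose by 1.20 (adjusted p = 0.00578 by edgeR). The list therefore moved in both directions, and its median log2 fold change was -0.24.

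Of 20 transcription factors with a role in epithelial or trophoblast gene control, 10 were tested, 3 fell and 1 rose. The fallers were the AP-1 subunits Jun (log2 fold change -2.45, adjusted p = 1.35e-06 by edgeR), Fosl2 (-2.45, adjusted p = 0.00179 by edgeR, 50 counts in all) and Fos (-0.88, adjusted p = 0.0284 by edgeR). Klf5, a factor of the trophectoderm, rose by 1.06 (adjusted p = 0.0116 by edgeR). Elf5, Tfap2c and Gata3 were tested and did not pass. Of 3 other intermediate filament genes tested, Vim, the mesenchymal filament protein vimentin, rose by 0.94 (adjusted p = 0.0279 by edgeR) and Lmna, the nuclear lamin A/C, fell by 1.14 on the log2 scale with overlap between groups (adjusted p = 0.0252 by edgeR). Of 8 tested trophoblast markers, Id2 alone passed and fell (-1.14, adjusted p = 0.00392 by edgeR). None of 22 other keratin genes had enough counts to be tested. Of the markers of other cell types, 2 epiblast genes and 1 primitive endoderm gene were tested and none passed at an adjusted p under 0.05 in edgeR (1 epiblast and 1 endoderm gene had an unadjusted p below it) or in DESeq2, and no fibroblast gene was tested.

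In single cells the main pair made up 90.9% to 97.8% of the UMIs of the 4 keratins. Levels are CPM of each library's UMIs outside mitochondrial genes, summed over kept wells, with exact Poisson intervals at 95% that cover counting error only. With 1 library per group there is no test, and each difference compares 2 libraries. Krt8 was lowest in the TSC library at 349.8 (334 to 366), followed by pTSC at 882 (845 to 920), blastoid pTSC at 1695 (1642 to 1749) and differentiated TSC at 2224 (2173 to 2275). Krt18 was also lowest in TSC at 1284 (1254 to 1314), stood at 2373 (2321 to 2427) in differentiated TSC and 2432 (2370 to 2494) in pTSC, whose intervals overlap, and was highest in blastoid pTSC at 4101 (4019 to 4184). The 2 chains thus shared the lowest library but not the highest. The share of UMIs from mitochondrial genes was 13.8% in TSC, 15.1% in pTSC, 19.3% in blastoid pTSC and 22.9% in differentiated TSC, the same order as Krt8, and its part in the Krt8 levels was not tested.

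The minor keratins were ordered differently. Krt7 stood at 54.1 (46.4 to 62.7) in differentiated TSC and 61.5 (52.1 to 72.2) in pTSC, which overlap, then at 103 (94.8 to 112) in TSC and 138 (123 to 154) in blastoid pTSC. Krt19 stood at 48.2 (40.99 to 56.4), 60.3 (53.9 to 67.2) and 72.2 (61.9 to 83.7) in differentiated TSC, TSC and pTSC, each overlapping its neighbour, and at 104 (91.7 to 119) in blastoid pTSC. Blastoid pTSCs were therefore the highest library for 3 keratins, and held 6038 CPM of the 4 together, against 4699 in differentiated TSC, 3447 in pTSC and 1797 in TSC. Of the other keratins, only Krt10, a keratin of stratified epidermis, and Krt20, a type I keratin of the gut lining, reached 10 UMIs in any library. Krt10 had 24 to 64 UMIs per library, and Krt20 had 37 in differentiated TSC, 16 in TSC, 47 in pTSC and 6 in blastoid pTSC.

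**Figure D2:**
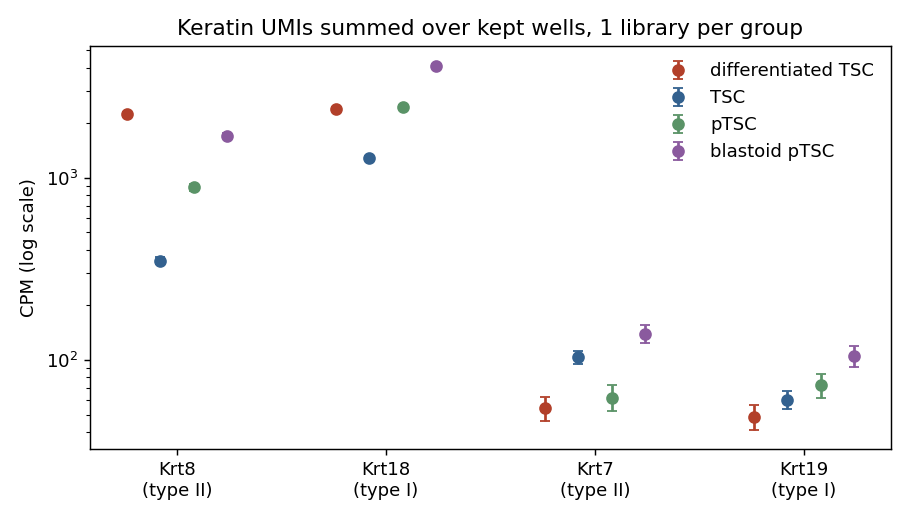
CPM (log axis) of each keratin in the 4 single-cell libraries, with exact Poisson intervals at 95%. Krt8 spans from 349.8 in TSC to 2224 in differentiated TSC, a wider range than that of Krt18, and Krt7 and Krt19 lie far below both.

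Withdrawal of growth factors went with a change in the balance of the pair. Differentiated TSCs had 6.36-fold (6.04 to 6.69) more Krt8 than TSCs and 1.85-fold (1.79 to 1.91) more Krt18, with exact conditional binomial intervals at 95%. Krt7 was 1.91-fold (1.61 to 2.27) lower and Krt19 1.25-fold (1.03 to 1.52) lower, but Krt19 changed sign when every well was thinned to 2000 UMIs (log2 ratio 0.23 against -0.32). Only Krt8 of the 4 lay at least 2-fold apart, where 35.5% of 12158 measured genes did and 17.5% were at least 2-fold higher. Krt7 passed 2-fold as well when mitochondrial genes were counted in the total (log2 ratio -1.09) or with TMM factors (-1.02). The median log2 ratio was 0.28 over the keratins and 0.05 over all genes.

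Between the same libraries, 12 of 19 desmosome and linker genes were measured, 2 at least 2-fold higher and 2 lower, with a median log2 ratio of 0.36. Pkp2, plakophilin 2 of the desmosome plaque, stood at 386 against 138 CPM, and Pkp4, a related armadillo protein, at 1.23 against 11.5. Of 16 measured transcription factors, 2 were at least 2-fold higher and 4 lower. Jun stood at 765 against 215 CPM, a log2 ratio of 1.83, and Cdx2 at 2.46 against 49.9. Of 11 measured trophoblast markers, 9 were at least 2-fold lower, with Id2, Sox2 and Eomes at 592, 297 and 119 against 2653, 760 and 377 CPM. High Krt8 therefore stood beside low stem cell markers in this library.

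pTSCs had 2.52-fold (2.37 to 2.68) more Krt8 and 1.89-fold (1.83 to 1.962) more Krt18 than TSCs, 1.68-fold (1.40 to 2.02) less Krt7, and 1.20 times the Krt19 level (0.991 to 1.44, an interval that includes no change). The minor keratins depended on depth here. With every well thinned to 2000 UMIs, the log2 ratio of Krt19 rose from 0.26 to 0.79, outside that interval. That of Krt7 went from -0.75 to -0.39. Krt8 alone reached 2-fold, where 31.5% of 12070 genes did and 17.6% were at least 2-fold higher. Here 1 of 11 measured trophoblast markers was at least 2-fold higher and 2 lower, so that Krt8 and Krt18 were higher while most of these markers lay within 2-fold. Of 12 measured desmosome and linker genes, 4 were at least 2-fold higher and 2 lower, and Perp stood at 1439 CPM in pTSC against 447 in TSC. Of 16 measured transcription factors, 1 was at least 2-fold higher and 1 lower. Jun, which was high beside Krt8 in differentiated TSC, stood lower here, at 136 CPM in pTSC against 215 in TSC.

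Blastoid pTSCs had more of all 4 keratins than cultured pTSCs: 1.92-fold (1.82 to 2.03) for Krt8, 1.69-fold (1.63 to 1.74) for Krt18, 2.25-fold (1.84 to 2.74) for Krt7 and 1.45-fold (1.19 to 1.77) for Krt19. Only Krt7 passed 2-fold, where 22.8% of 11343 genes did and 13.4% were at least 2-fold higher, and with wells thinned to 2000 UMIs its log2 ratio of 0.993 fell just short. The median log2 ratio was 0.85 over the keratins and 0.07 over all genes. Of 8 measured epiblast markers, 5 were at least 2-fold higher and 1 lower, and of 10 measured trophoblast markers, 0 were higher and 1 lower. Of 11 measured desmosome and linker genes, 1 was at least 2-fold higher and 2 lower. Perp was lower, at 564 against 1439 CPM, and Dsp higher, at 58.7 against 28.3. Whether cultured pTSCs of the same line would give these ratios is not known, since the labels do not say that the pTSC library is line pTS1.

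Krt8 and Krt18 were coupled from cell to cell. The correlation of their levels across wells (log of counts scaled to 10000 per well plus 1) was r = 0.73 in differentiated TSC (318 wells), 0.65 in TSC (318 wells), 0.58 in pTSC (299 wells) and 0.83 in blastoid pTSC (257 wells). Wells of 1 library share its preparation and are not replicates, so these are descriptions, and the correlation of either gene with the UMIs of a well was at most 0.22. In each of the 4 libraries Krt18 held the highest correlation with Krt8 of all 3770 to 5172 genes seen in at least 25% of wells, and Krt8 held the highest with Krt18. The 99th percentile of all genes' correlation with Krt8 was 0.35, 0.37, 0.25 and 0.43 in the same order. With every well thinned to 2000 UMIs the values were 0.58, 0.44, 0.51 and 0.68.

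**Figure D3:**
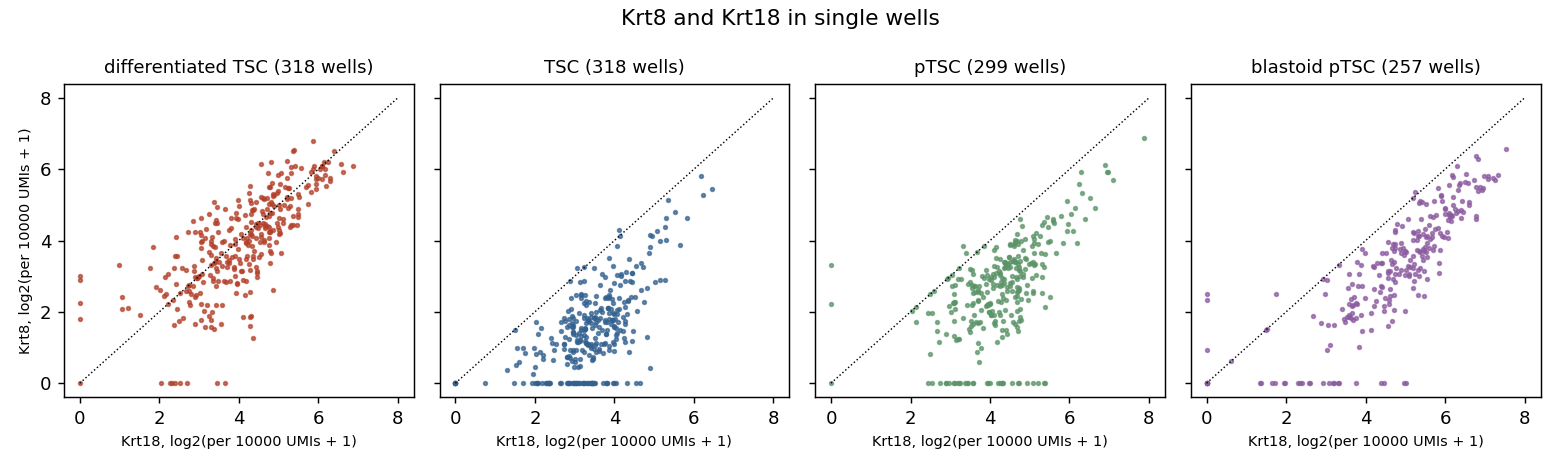
Krt8 against Krt18 in single wells of the 4 libraries, each as log2 of UMIs per 10000 plus 1, with a dotted line where both are equal. The differentiated wells scatter around the line, whereas nearly all wells of the other 3 libraries lie under it, and wells at 0 for Krt8 are most frequent in TSC.

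The other combinations of a type I and a type II chain were weaker. Krt7 with Krt18 reached r = 0.41 in TSC and 0.38 in pTSC, where Krt18 was the closest of all ranked genes to Krt7, and 0.38 in blastoid pTSC, where it took the second place. In differentiated TSC the value was 0.16 and Krt18 stood at place 63. Krt19 with Krt8 reached 0.45 in TSC and in blastoid pTSC, where Krt8 took place 3 for Krt19, 0.32 in differentiated TSC and 0.15 in pTSC. Chains of the same type gave values close to these: Krt7 with Krt8 reached 0.16, 0.35, 0.33 and 0.36 in differentiated TSC, TSC, pTSC and blastoid pTSC, and Krt19 with Krt18 reached 0.28, 0.32, 0.12 and 0.36. Within the main pair, the chain of the opposite type gave the larger value for Krt7 and for Krt19 in each library. Krt7 with Krt19, also of opposite types, gave lower values, at 0.02, 0.13, -0.04 and 0.18 in the same order. A general preference for the opposite type was therefore not shown. With wells thinned to 2000 UMIs, Krt7 with Krt18 came to 0.02, 0.11, 0.32 and 0.33, and with Krt8 to 0.01, 0.15, 0.31 and 0.22. Krt19 with Krt8 came to 0.25, 0.33, 0.10 and 0.29, and with Krt18 to 0.27, 0.31, -0.06 and 0.25. The opposite type thus stayed larger except for Krt7 in TSC and Krt19 in differentiated TSC. Krt7 had a UMI in 24.4% to 54.1% of wells and Krt19 in 27.0% to 40.9%, which limits any correlation.

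Co-detection was counted after thinning each kept well to 2000 UMIs. In TSC, 32.1% of wells had a Krt8 UMI, 84.6% a Krt18 UMI and 29.2% both, so that 176 wells showed Krt18 alone and 9 showed Krt8 alone. In pTSC the shares were 64.9%, 95.7% and 62.5%, and in blastoid pTSC 73.5%, 92.6% and 71.6%, with 99 and 54 wells of Krt18 alone against 7 and 5 of Krt8 alone. In differentiated TSC they were 84.3%, 86.5% and 75.2%, with 36 wells of Krt18 alone and 29 of Krt8 alone. Without thinning, 80.5% to 97.2% of wells had a Krt8 UMI and 96.5% to 98.997% a Krt18 UMI across the libraries, with Krt8 seen least often in TSC. As a measure of stray RNA, wells under 200 UMIs held 10 keratin UMIs of 1863 in the differentiated library, 1 of 1002 in TSC, 4 of 2162 in pTSC and 19 of 4103 in blastoid pTSC.

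The ratio of RNA counts of the 2 chains differed between libraries. There were 0.937 (0.907 to 0.968) Krt8 UMIs per Krt18 UMI in differentiated TSC, 0.273 (0.259 to 0.287) in TSC, 0.363 (0.345 to 0.381) in pTSC and 0.413 (0.398 to 0.429) in blastoid pTSC. Counting Krt7 and Krt19 as well, type II UMIs per type I UMI came to 0.941, 0.337, 0.377 and 0.436. The 4 intervals, which cover counting error only, did not overlap for either ratio. As given below, the Krt8 share varied more between wells than such intervals assume. The well medians of pTSC and blastoid pTSC were also close, so that the lack of overlap does not separate these libraries. Of the 4 single-cell libraries, only the differentiated one came near equal UMI counts of Krt8 and Krt18. Protein was not measured, and whether RNA of the 2 genes is captured equally was not tested.

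The same ratio was then read well by well, in the wells with at least 10 UMIs of the pair. Krt8 made up a median of 47.8% of the pair in 251 differentiated wells (quartiles 40% and 58.3%), 17.0% in 235 TSC wells (10% and 25%), 25% in 221 pTSC wells (17.1% and 31.8%) and 25.8% in 213 blastoid wells (20% and 32.5%). The upper quartile of TSC wells lay below the lower quartile of differentiated wells. The spread of the share between wells exceeded that of binomial sampling, with a variance 3.03, 3.02, 1.36 and 2.46 times as large in the same order. Wells with more of the pair tended to hold a larger Krt8 share, with Spearman's rho of 0.19, 0.34, 0.22 and 0.37.

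**Figure D4:**
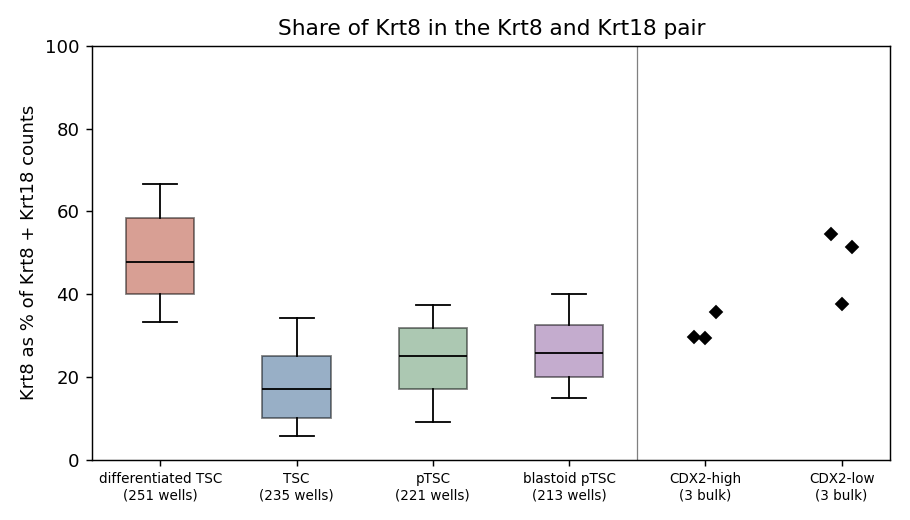
Krt8 as a percentage of Krt8 plus Krt18 counts, per well in the 4 single-cell libraries (box: quartiles and median, whiskers: 10th and 90th percentiles, wells with at least 10 UMIs of the pair) and per bulk library (diamonds). The median is 47.8% in differentiated TSC and 17.0% to 25.8% in the other 3, and the CDX2-high diamonds lie below the CDX2-low diamonds. Whether bulk and single-cell percentages can be compared was not tested. Plec averaged 745 CPM in CDX2-high and 321 in CDX2-low libraries but stood at 0.371 in the TSC library. Other listed genes also lay far apart, in the same order Esrrb at 297, 160 and 2.04 and Tfap2c at 269, 210 and 7.05. Jup stood at 338, 393 and 19.7, and Id2 at 258, 567 and 2653. Closer were Sox2 at 742, 529 and 760, Klf5 at 434, 207 and 376 and Perp at 337, 156 and 447.

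Keratin levels were uneven within each culture. The 4 keratins together had a median of 32.8 UMIs per 10000 in differentiated wells (10th to 90th percentile 10.4 to 98.97), 12.9 in TSC (4.80 to 28.9), 26.2 in pTSC (9.85 to 56.6) and 41.9 in blastoid wells (8.20 to 130). Krt8 in TSC was concentrated in few wells: the highest 32 of 318 wells held 50.8% of its summed level, against 29.2% for Krt18 in the same library and 31.6% for Krt8 in differentiated TSC. After thinning, the variance of Krt8 over its mean was 3.64 in TSC, 3.49 in pTSC, 4.65 in differentiated TSC and 5.50 in blastoid pTSC.

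The genes whose pattern across wells was most like that of the summed keratins were ranked by the mean correlation over the 4 libraries, among 3245 genes seen in at least 25% of wells of each. The 5 highest were Basp1, a membrane-bound signalling protein (mean r = 0.51), Lgals1, galectin 1 (0.49), and 3 proteins that bind actin, Tpm4, a tropomyosin (0.46), Tagln2, transgelin 2 (0.45), and Cnn2, calponin 2 (0.43). Basp1 ranged from 0.29 in pTSC to 0.75 in blastoid pTSC. The 3 lowest were Sox2, a transcription factor of the stem cell state (mean r = -0.47), the chromatin remodeller Atrx (-0.36) and the glycosyltransferase B4galt6 (-0.36). Sox2 was negative in each library, at -0.48 in differentiated TSC, -0.44 in TSC, -0.27 in pTSC and -0.69 in blastoid pTSC.

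In the bulk fit none of these 8 genes passed at an adjusted p under 0.05 by edgeR (5 had an unadjusted p below it), and DESeq2 called 0 of them. Log2 fold changes were -0.70 for Cnn2 (adjusted p = 0.0992 by edgeR) and -0.64 for Tagln2 (adjusted p = 0.0926 by edgeR), and 0.49 for Sox2 (adjusted p = 0.227 by edgeR). Levels of the 8 genes between libraries did not follow the keratins throughout. Cnn2, for instance, stood at 620 in TSC and 295 CPM in pTSC, the reverse of the keratin order, while Tpm4 stood at 333 in TSC, 627 in pTSC, 1123 in blastoid pTSC and 1200 in differentiated TSC.

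The same measure was read for the listed genes. The desmosome gene Pkp2 had a correlation with the summed keratins of 0.51 in differentiated TSC, 0.38 in TSC, 0.06 in pTSC and 0.33 in blastoid pTSC. Dsg2 and Perp stayed between -0.20 and 0.22 in all 4 libraries. Jund, an AP-1 subunit, had 0.38, 0.32, 0.28 and 0.13, and Jun, which fell with Krt8 in CDX2-high cells, 0.20, 0.22, 0.17 and 0.21. Of the other subunits, Junb had 0.10, 0.15, 0.11 and 0.20. Fos and Fosl2 also fell in CDX2-high cells. Fos had -0.16, 0.17, 0.16 and 0.03, and Fosl2 had 0.01, 0.06, 0.20 and 0.13. Fosl1 had -0.20 in differentiated TSC, -0.06 in TSC and -0.04 in pTSC. The AP-1 subunits thus did not share a sign. Among trophoblast markers, Eomes, a factor of the stem cell state, had -0.44, -0.31, -0.22 and -0.28, the last being -0.53 without 15 wells that carry epiblast markers, described below, whereas Gata3, a factor of trophectoderm fate, had 0.03, 0.14, 0.12 and 0.25. Sox2 and Eomes were thus negative in each library, and Gata3 was not. Id2, which fell with Krt8 in CDX2-high cells, was negative as well, at -0.35, -0.39, -0.12 and -0.25. Tead4 had -0.15, -0.01, 0.04 and -0.02. Cdx2, the gene behind the bulk sort, had -0.04 in TSC, 0.02 in pTSC and -0.04 in blastoid pTSC. Cdx2 had a UMI in only 30.2%, 28.1% and 20.6% of wells in these libraries, which limits any correlation. The values therefore cannot show whether Cdx2 and the keratins were related across wells.

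The blastoid library held a set of wells with almost no keratin. In 15 wells there were at least 2 UMIs over the epiblast markers Tdgf1, Gdf3, Fgf4 and Pou5f1 (128 UMIs of these markers in all), against 5 such marker UMIs in the other 242 wells. No well of differentiated TSC or pTSC and 1 well of TSC met this rule, which was set after the data were seen. The 4 genes of the rule were picked from the 10 listed epiblast markers. Of the rest, Utf1 had a UMI in 80.2% of all blastoid wells, Zfp42 in 44.0% and Klf4 in 36.6%. Klf2 had one in 12.5% and Dppa5a in 7.78%, and Nanog had no row in the single-cell tables. Utf1 was lower in blastoid pTSC than in pTSC, at 422 against 990 CPM. The 15 wells held 16 keratin UMIs, or 179 CPM, and the other 242 held 13968, or 6273 CPM. All 6 blastoid wells without any keratin UMI were among the 15, whose median depth was 5006 UMIs against 8388 in the other 242.

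At full depth, Krt8 was seen in 4 of these 15 wells (26.7%), with 4 UMIs in all, and in 93.0% of the other 242, and Krt18 in 53.3% and 99.2%. With wells thinned to 2000 UMIs, Krt8 was seen in 0 of the 15 and in 78.1% of the others, and Krt18 in 33.3% and 96.3%. At that lower depth a count of 0 allows a share of wells with a UMI of up to 20%. Without the 15 wells the correlation of Krt8 with Krt18 was 0.81 in place of 0.83 and that of Sox2 with the summed keratins -0.64 in place of -0.69, so that both were nearly as large among the other wells. The correlation of Eomes with the summed keratins was -0.53 without the 15 wells in place of -0.28. Among the 242 wells the 4 keratins still ranged from 1.52 to 294 UMIs per 10000, with quartiles of 24.8 and 79.5.

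**Figure D5:**
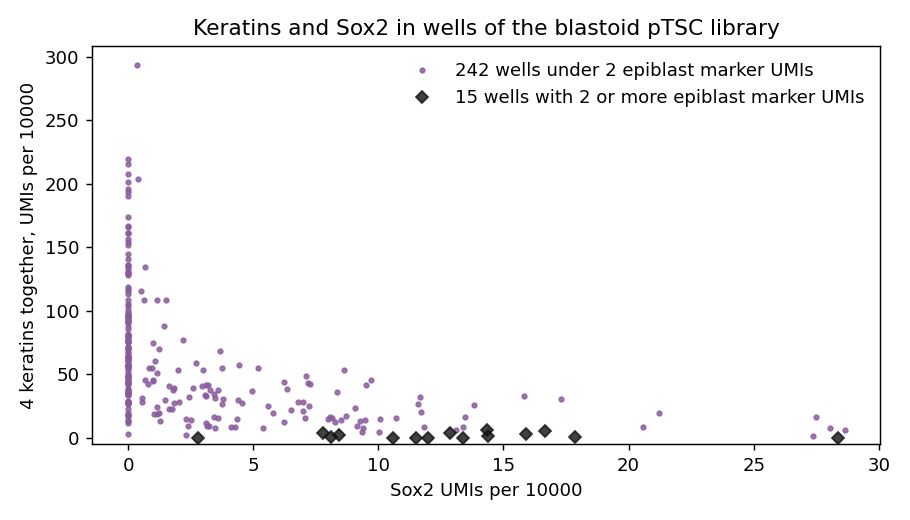
The 4 keratins together against Sox2, both in UMIs per 10000, in each well of the blastoid pTSC library. Black diamonds are the 15 wells with at least 2 UMIs of the 4 picked epiblast markers. They lie between 0 and 6.15 keratin UMIs per 10000, and most of the wells above 100 have no Sox2 UMI.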

How the data were processed

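CEL-Seq2 counts were used as the authors deposited them. The bulk table has 1 whole-number count per gene in each library, unscaled. In the single-cell tables, estimated counts of transcripts per gene and well were deposited by the authors as whole numbers, with 1 well per column per the file headers, and needed no rounding. The submitters' processing notes name STAR 2.5.3a. The build, the annotation and the counting program were not given in the sources used here.

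For the bulk table, edgeR 4.0.16 (R 4.3.3) was run with filterByExpr, TMM factors, glmQLFit and glmQLFTest, without covariates, and p-values were adjusted by Benjamini-Hochberg over all 3006 genes (threshold 0.05). DESeq2 1.42.0 was an alternative. Replicate numbers do not recur between the bulk groups. Tested on simulated bulk data (2988 genes), 34 of 97 genes changed 2-fold and 94 of 96 changed 4-fold were recovered, and 11 of 139 calls were false. At this depth a 2-fold change was therefore often missed.

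Kept wells (2000 or more UMIs, mitochondrial genes set aside) were summed per library and compared as CPM, over genes whose counts in the 2 libraries came to 10 or more. Exact intervals cover counting error only. In data simulated with counting error alone, as the intervals assume, 95.7% of 10572 intervals held the true ratio. That simulation checks the calculation and does not show coverage under spread between wells or libraries. Doublets were not called, since wells were sorted; dropping the 5% deepest wells was an alternative. Python 3.11.15 with numpy 2.4.6, pandas 2.3.3 and scipy 1.17.1 was used. Promoters are from RefSeq and gene positions from GENCODE vM21. Named genes were the 4 keratins, other keratins with at least 10 counts in a library, list members that passed in bulk or lay 2-fold apart with at least 50 counts (at most 6 per list and comparison), and the 5 most and 3 least like genes; a few others were chosen after their values were seen. The members and lists were chosen with earlier results of these data known.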

Additional observations from a re-analysis of the deposited data

How the results depend on the processing

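In bulk, 177 genes passed; the count was 75 with DESeq2 and 81 to 189 with 1 library left out, against 223 with no filter on low counts, 174 without TMM and 128 after thinning. The log2 fold change of Krt8 ran from -1.96 to -1.74 with 1 library left out, that of Krt18 from -0.98 to -0.65 and that of Krt19 from -1.72 to -1.59, and that of Krt19 was -1.65 with DESeq2, past no threshold there. The log2 ratio of Krt8 to Krt18 differed by -1.30 to -0.80 between groups with 1 library left out. No direction changed. With no filter Krt7 had a log2 fold change of -0.88 (adjusted p = 0.541 by edgeR). No paired analysis was possible because the 2 bulk groups share no replicate number.

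Genes at least 2-fold apart numbered 4316 between differentiated TSC and TSC (2532 after thinning wells to 2000 UMIs, 2320 with a minimum of 50 counts), 3798 between pTSC and TSC (1924 and 1680) and 2591 between blastoid pTSC and pTSC (1599 and 993); fewer genes were measured under both settings. Of 96 alternative values of the keratins' single-cell ratios, 76 moved by less than the interval of the ratio and 20 by more, and only Krt19 between differentiated TSC and TSC changed sign. The correlation of Krt8 with Krt18 was 0.58 after thinning in differentiated TSC, 0.44 in TSC and 0.68 in blastoid pTSC; Spearman's rho was 0.78 in differentiated TSC and 0.88 in blastoid pTSC; and with at least 5000 UMIs per well r was 0.78 in differentiated TSC and 0.74 in pTSC. The cause was not tested. The rule on wells with epiblast markers was added after seeing the data. Each single-cell group rests on 1 library, and Krt7 and Krt19 on few UMIs.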
